A study of Saccharomyces cerevisiae with 10 samples.

Results

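Amino acid synthesis in budding yeast was followed through a heat shock with 44 genes, taken by their systematic names from the routes to histidine, arginine, lysine, leucine, isoleucine and valine, tryptophan and the other aromatic amino acids, threonine, serine and glutamine. Of these genes 41 had values among the 5983 features of the table, 38 had a value on both unheated arrays and could be tested, and 37 had a value on all 10 arrays. HIS2, ARG1 and ARG56 lacked a value on 1 of the unheated arrays and are described without a test. The other 3 genes, 1 each of the lysine, leucine and shikimate routes, were not analysed here.

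Yeast makes all of its amino acids, and each route is held in check by its end product, which commonly inhibits the first enzyme. When amino acids run short, uncharged tRNA activates the kinase Gcn2, which raises translation of the transcription factor Gcn4, and Gcn4 induces genes of most of these routes together, a response known as general amino acid control. Single routes also have regulators of their own, such as Leu3 for the branched-chain amino acids, Lys14 for lysine and the ArgR complex for arginine. Isoleucine, valine and leucine share enzymes, most of which sit in the mitochondrion.

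The samples were total RNA of Saccharomyces cerevisiae at 0, 5, 15, 30 and 60 min of heat shock in 2 strains, DBY8778, taken as the wild type, and a deletion of KIN82, a gene for a protein kinase linked to the lipid flippases of the plasma membrane. Each strain and time was 1 array with 2 channels, the sample and a reference. The sources used here do not describe the reference, the temperature, the medium, the auxotrophic markers or the number of cultures. For the deletion, the arrays of 0 and 60 min are titled repeat and all DBY8778 arrays carry heat shock2 in the title, so that strain cannot be told apart from the run of the time course. KIN82 itself was not analysed here.

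Values are log2 ratios of sample over reference, with each array centred on its median, so that a change in total mRNA per cell cannot be seen. Neither the base nor the direction of the ratio is stated. The direction was read from a list of heat shock chaperones, of which 23 of 23 measured in each strain were higher at 15 min than at 0 min. The arrays held between 5844 and 5949 values, with a standard deviation over features between 0.55 (deletion, 60 min) and 1.27 (wild type, 15 min). With 1 array for each strain and time, the number of arrays limits the precision, and p-values set additive effects of time and strain against the departures from them. The median chaperone stood at 1.78 on the unheated wild-type array and at 0.71 on that of the deletion, so the 2 unheated arrays differed before any heat.

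**Figure D1:**
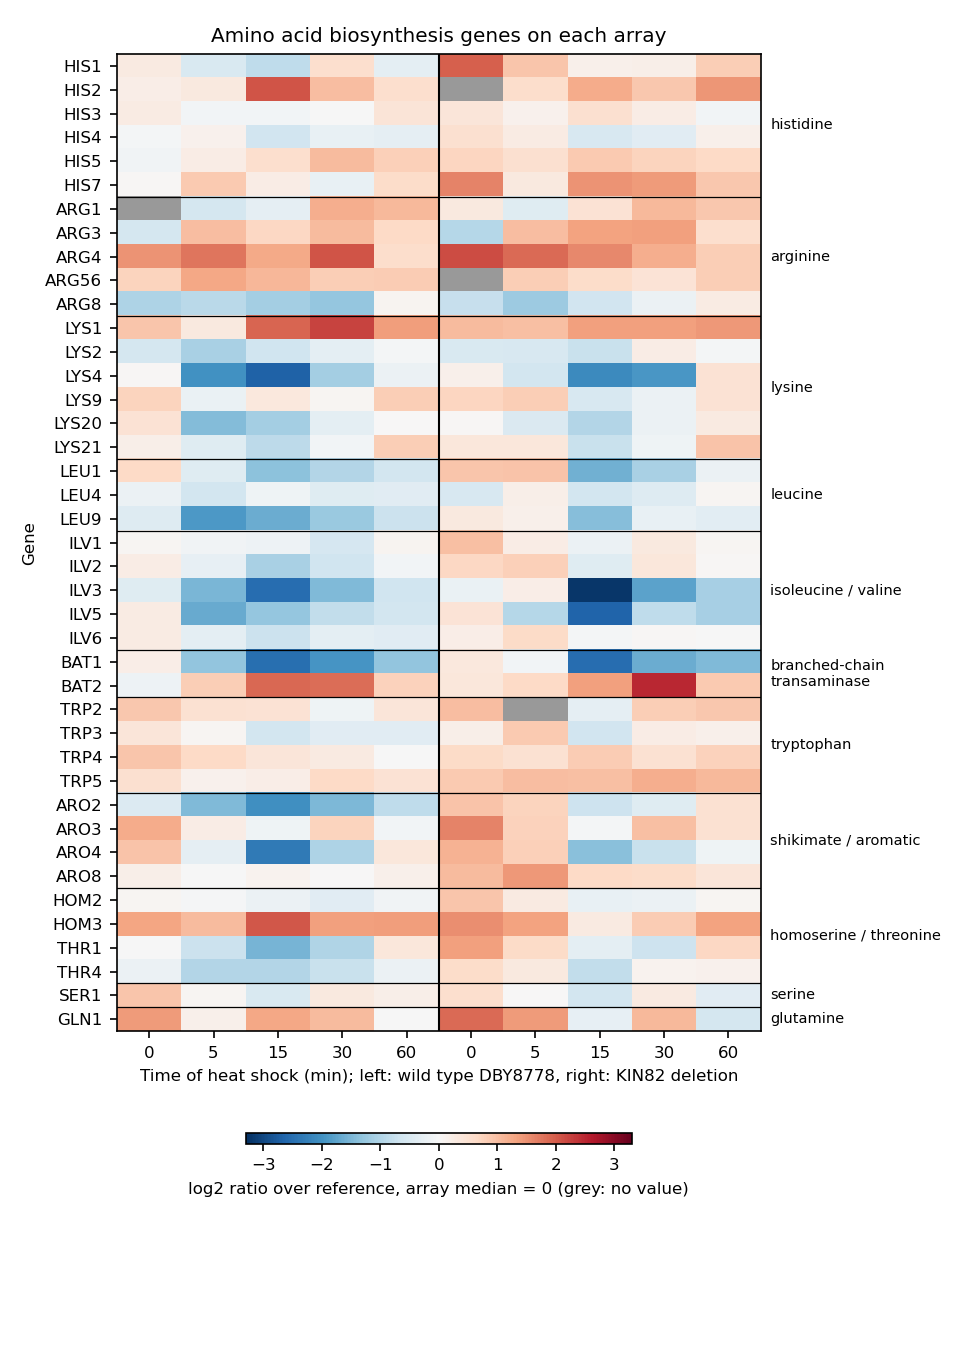
Heat map of the 41 measured genes (rows, grouped by route) on the 10 arrays (columns, 0 to 60 min in the wild type at left and the KIN82 deletion at right), coloured by log2 ratio over the reference. The 15 min columns of both strains hold the lowest values of ILV3, BAT1, LYS4 and ARO4, while BAT2 and ARG3 are above 0 on every heated array.

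In the heat average, which sets the mean of the 4 heated times against 0 min, 12 of the 38 tested genes fell and 2 rose in limma at an adjusted p under 0.05, where 10.3% of all 5734 features tested fell and 5.76% rose. The falls were BAT1, ARO4, ILV5, LEU1, LYS4, ILV3, GLN1, ARO3, HIS1, THR1, ARO2 and SER1, and the rises ARG3 and BAT2. By route, 4 of 10 tested genes of the branched-chain routes fell (ILV3, ILV5, LEU1 and BAT1), 3 of 4 of the shikimate and aromatic steps, 1 of 6 of the lysine route, 1 of 5 histidine genes, 1 of 4 of the threonine route and 0 of 4 of the tryptophan branch. The median of the 38 genes was -0.53, beside 0.03 for all features, and 30 of the 38 changes were below 0. Without the unheated wild-type array 2 genes fell and 1 rose, and without that of the deletion 5 fell and 2 rose, while the median stayed between -0.43 and -0.65 over all alternatives tried.

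**Figure D2:**
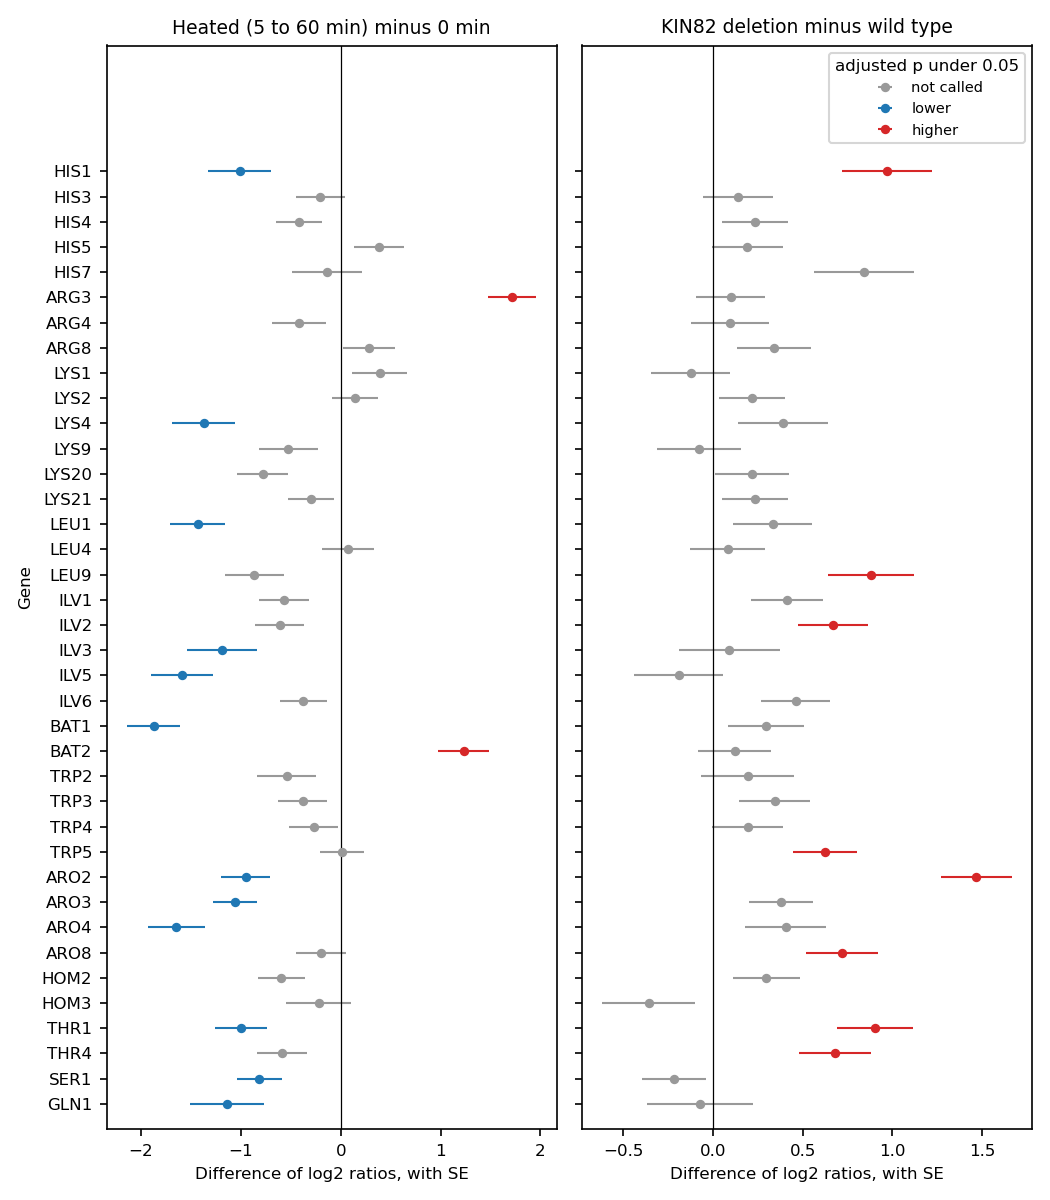
Heat average (left) and difference of deletion minus wild type over the 5 times (right) for each of the 38 tested genes, in log2 units with standard errors from limma. Blue and red points are genes lower and higher at an adjusted p under 0.05, and BAT1 (-1.87) and ARG3 (1.72) are the ends of the left panel.

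The deepest falls in the heat average were those of BAT1 (YHR208W) and, described with its paralogue further on, ARO4 (YBR249C). BAT1, the mitochondrial branched-chain aminotransferase that carries out the last step of synthesis, stood at 0.22, -1.31, -2.49, -1.94 and -1.31 at 0, 5, 15, 30 and 60 min in the wild type and at 0.34, -0.09, -2.51, -1.64 and -1.45 in the deletion. All 8 heated values lay below both unheated ones, as they also did for ILV5 (YLR355C), ARO3 (YDR035W), ARO4 and SER1 (YOR184W), or 5 of 37 genes with all values (6.11% of all features). Its heat average was -1.87 ± 0.26, adjusted p = 0.000275, a 3.67-fold fall, which was called in all 16 alternatives. ILV5, acetohydroxyacid reductoisomerase, went from 0.26 to -1.66 within 5 min in the wild type, whose values were 0.26, -1.66, -1.29, -0.82 and -0.61. In the deletion its values were 0.45, -0.95, -2.64, -0.83 and -1.10, with the lowest at 15 min. The heated values again did not reach the unheated ones, and the heat average was -1.59 ± 0.31, adjusted p = 0.0022.

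LEU1 (YGL009C), isopropylmalate isomerase of the leucine branch, had wild-type values of 0.65, -0.40, -1.36, -0.96 and -0.59 and deletion values of 0.91, 0.93, -1.60, -1.06 and -0.19. The deletion at 5 min was no lower than at 0 min, and both strains were low from 15 min on (heat average -1.43 ± 0.28, adjusted p = 0.0021). ILV3 (YJR016C), dihydroxyacid dehydratase, stood at -0.40, -1.50, -2.50, -1.47 and -0.65 in wild-type cells and -0.21, 0.21, -3.20, -1.77 and -1.10 in the deletion, where the value of -3.20 at 15 min was the lowest of any of these genes on any array. Its heat average was -1.19 ± 0.35, adjusted p = 0.0291, with the call lost in 6 of 16 alternatives, among them without either unheated array and after quantile normalization.

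The earlier steps fell less in the heat average, a difference that was not tested. Heat averages of ILV1 (YER086W), threonine deaminase, and of ILV2 (YMR108W) and ILV6 (YCL009C), the catalytic and regulatory subunits of acetolactate synthase, were -0.57, -0.61 and -0.37, none of which passed the test. At 15 min alone ILV2 fell, by 1.19 on the log2 scale (adjusted p = 0.00976). All 5 ILV genes had heat averages below 0, and 4 of them were lower in limma at an unadjusted p under 0.05. The share of all features at that unadjusted threshold is not given here.

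**Figure D3:**
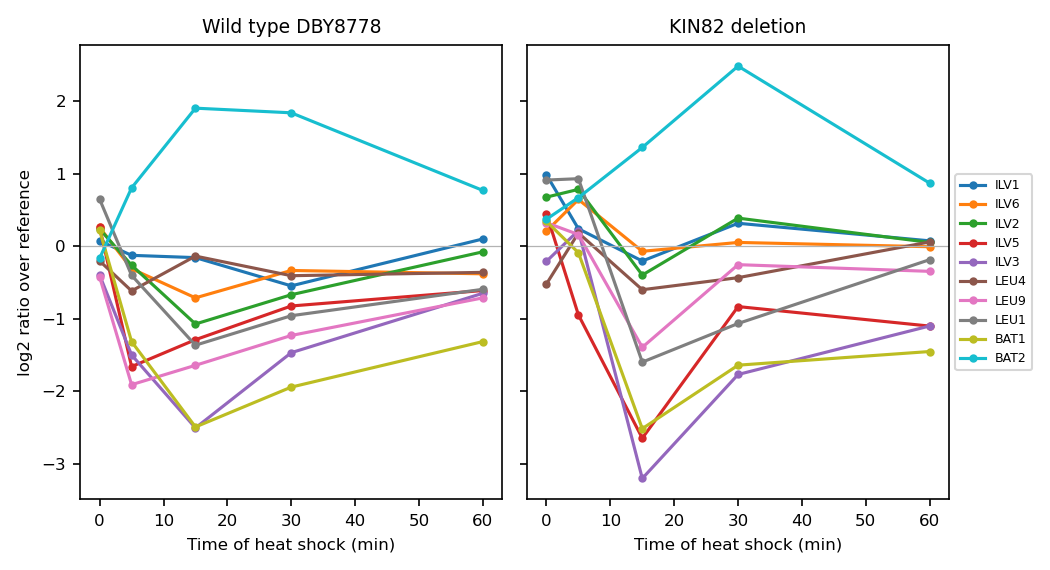
Log2 ratio over the reference (vertical axis) by time of heat shock in min (horizontal axis) for 10 genes of isoleucine, valine and leucine synthesis, 1 point per array, in the wild type (left) and the deletion (right). BAT2 is above 0.6 on all heated arrays, while ILV3, ILV5, LEU1 and BAT1 are at or below -1.29 on both 15 min arrays.

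Paralogous enzymes of a step did not always follow each other. BAT2 (YJR148W), the cytosolic branched-chain aminotransferase, which is the counterpart of BAT1, stood at -0.17, 0.80, 1.90, 1.84 and 0.77 in wild-type cells and 0.37, 0.67, 1.36, 2.48 and 0.87 in the deletion. Every heated value lay above both unheated ones, which held for BAT2 and ARG3 (YJL088W), or 2 of the 37 genes (5.86% of all features), and BAT2 rose by 1.23 ± 0.26, adjusted p = 0.00341. At 15 min the change from 0 min was -2.78 for BAT1 and 1.53 for BAT2 (adjusted p = 2.61e-05 and adjusted p = 0.00248). The pair thus moved in opposite directions in both strains.

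LEU4 (YNL104C) and LEU9 (YOR108W) encode the 2 isopropylmalate synthases, which start the leucine branch. LEU4 stood at -0.20, -0.62, -0.14, -0.41 and -0.36 in wild-type cells and -0.52, 0.18, -0.60, -0.43 and 0.06 in the deletion, a heat average of 0.07. LEU9 stood at -0.42, -1.91, -1.64, -1.23 and -0.71 in wild-type cells and 0.32, 0.16, -1.39, -0.26 and -0.35 in the deletion. It was called lower at 15 min (-1.47 ± 0.38, adjusted p = 0.00982) but not in the heat average (-0.86, adjusted p = 0.0635). The difference between LEU4 and LEU9 was not tested. The wild type had its lowest LEU9 value at 5 min, when the deletion stood at 0.16 beside 0.32 at 0 min.

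LYS20 (YDL182W) and LYS21 (YDL131W), the homocitrate synthases of the first lysine step, are close in sequence. How well the probes told the genes of this or the other pairs apart is not known. LYS20 stood at 0.48, -1.43, -1.12, -0.33 and 0.01 in wild-type cells and 0.03, -0.47, -0.97, -0.20 and 0.30 in the deletion. LYS21 stood at 0.20, -0.41, -0.86, -0.09 and 0.81 in wild-type cells and 0.37, 0.38, -0.73, -0.14 and 0.95 in the deletion. Both fell at 15 min, by 1.30 and 1.08 on the log2 scale, and both were higher at 60 than at 15 min, by 1.20 and 1.68. At 60 min LYS21 lay above its unheated value in both strains (change 0.60, not called), and LYS20 did so in the deletion alone.

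ARO3 and ARO4 encode DAHP synthases, the first enzymes of the shikimate route, inhibited by phenylalanine and by tyrosine respectively. ARO4 stood at 0.95, -0.31, -2.34, -1.01 and 0.37 in wild-type cells and 1.16, 0.79, -1.39, -0.73 and -0.14 in the deletion. It was 7.54-fold lower at 15 than at 0 min (-2.92 ± 0.36, adjusted p = 3.1e-05), and it was higher again at 60 than at 15 min (1.98 ± 0.36, adjusted p = 0.00112). ARO3 stood at 1.22, 0.24, -0.15, 0.72 and -0.10 in wild-type cells and 1.63, 0.77, -0.07, 0.99 and 0.51 in the deletion. Its fall at 15 min was -1.54 ± 0.28, adjusted p = 0.000773, and its value at 60 min was also called lower than at 0 min (-1.22 ± 0.28, adjusted p = 0.0458), a call lost in 8 of 16 alternatives, among them no centring. ARO4 was not called at 60 min. Heat averages were -1.65 ± 0.28, adjusted p = 0.000963 for ARO4 and -1.06 ± 0.22, adjusted p = 0.00369 for ARO3. The difference between the paralogues was not tested.

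**Figure D4:**
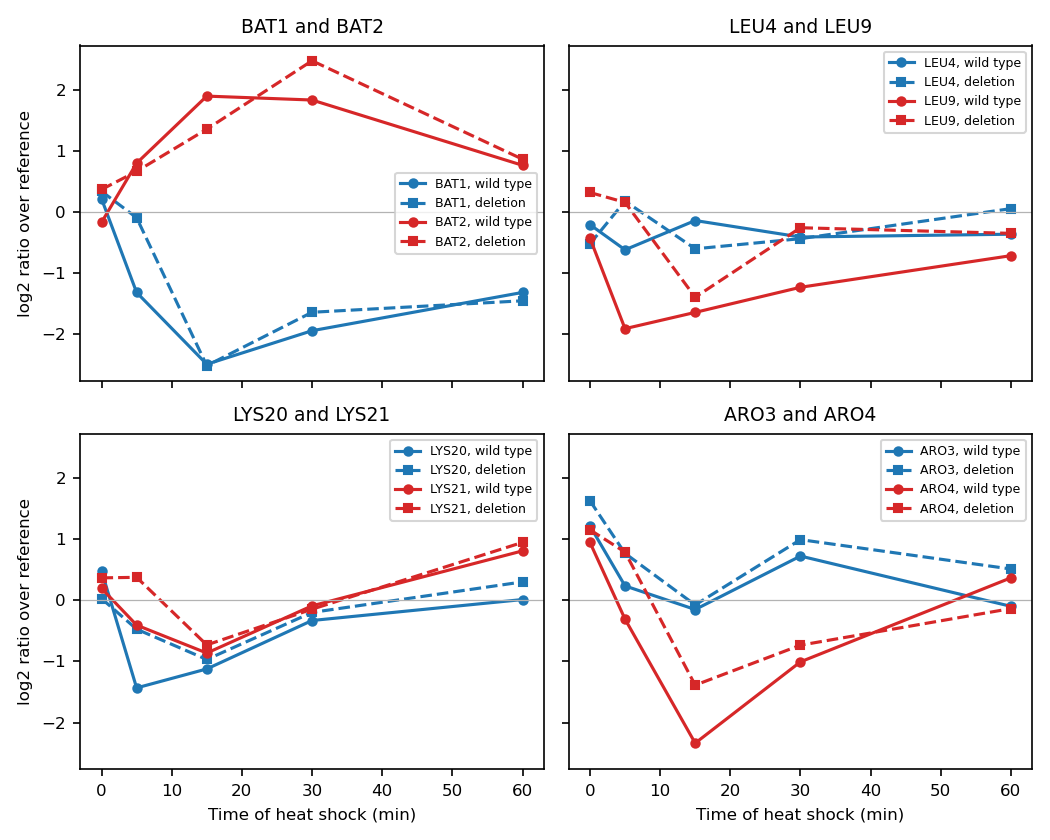
Log2 ratio over the reference by time of heat shock for 4 pairs of paralogues, 1 point per array, with solid lines for the wild type and dashed lines for the deletion. BAT1 and BAT2 separate in opposite directions, and at 15 min ARO4 is below ARO3 in both strains.

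In the rest of the aromatic route, ARO2 (YGL148W), chorismate synthase, stood at -0.45, -1.45, -2.03, -1.48 and -0.83 in wild-type cells and 0.95, 0.74, -0.69, -0.41 and 0.51 in the deletion. The deletion was higher at every time, and within each strain 15 min was the lowest. The heat average was -0.95 ± 0.25, adjusted p = 0.0139, lost after quantile normalization and without either unheated array. ARO8 (YGL202W), an aromatic aminotransferase, had a heat average of -0.20 and was not called at any time. None of the 4 tryptophan genes was called in the heat average. TRP2 (YER090W), TRP3 (YKL211C) and TRP4 (YDR354W), which act between chorismate and indole glycerol phosphate, had values of -0.54, -0.38 and -0.27, and TRP5 (YGL026C), tryptophan synthase, was at 0.02. At 15 min TRP3 fell by 0.92 on the log2 scale (adjusted p = 0.0457).

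In the lysine route, LYS4 (YDR234W), homoaconitase, stood at 0.04, -1.99, -2.66, -1.13 and -0.20 in wild-type cells and 0.18, -0.61, -2.10, -1.92 and 0.48 in the deletion. Its fall at 5 min (-1.40 ± 0.40, adjusted p = 0.0397) was called in 8 of 16 alternatives and ran from -2.02 without the deletion array of that time to -0.79 without the wild-type one. Both strains were lowest at 15 min (-2.49 ± 0.40, adjusted p = 0.000255), a call kept in all 16. At 60 min it stood at -0.20 and 0.48, beside 0.04 and 0.18 at 0 min, and the rise from 15 to 60 min was 2.52 ± 0.40, adjusted p = 0.000423. That rise was the largest among the 38 genes. Of the later enzymes, LYS1 (YIR034C) and LYS9 (YNR050C), the saccharopine dehydrogenases, had heat averages of 0.39 and -0.52, and LYS2 (YBR115C), aminoadipate reductase, one of 0.14, none called. LYS9 was at -0.81 at 15 min and 0.75 from 15 to 60 min, also not called, and its difference from LYS4 was not tested.

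Of the 3 arginine genes tested, 1 rose and 0 fell. ARG3, ornithine carbamoyltransferase, stood at -0.57, 1.01, 0.69, 1.05 and 0.66 in wild-type cells and -0.94, 1.02, 1.33, 1.36 and 0.55 in the deletion. The unheated arrays were the lowest of each strain, with no overlap with the heated ones, and the gene was 3.29-fold higher in the heat average (1.72 ± 0.24, adjusted p = 0.000272), a call kept in all 16 alternatives. It was called at 5 min (1.77 ± 0.30, adjusted p = 0.00215), 15 min (1.77 ± 0.30, adjusted p = 0.000482), 30 min (1.96 ± 0.30, adjusted p = 0.000843) and 60 min (1.36 ± 0.30, adjusted p = 0.0429). The calls at 15 and 30 min were kept in all 16 alternatives, while that at 60 min was lost in 7, among them without either unheated array, and that at 5 min in 1, without both arrays titled repeat. Among the other genes of the route, ARG4 (YHR018C), argininosuccinate lyase, was at -0.42 and ARG8 (YOL140W), acetylornithine aminotransferase, at 0.28, both not called. ARG8 was higher at 60 than at 15 min (1.05 ± 0.33, adjusted p = 0.032). ARG1 (YOL058W), argininosuccinate synthetase, had no value on the unheated wild-type array and stood at -0.58, -0.30, 1.20 and 1.06 at 5 to 60 min there, and at 0.32, -0.41, 0.48, 1.07 and 0.89 in the deletion. ARG56 (YER069W), which encodes acetylglutamate kinase and the reductase that follows it as one precursor, stood at 0.73, 1.27, 1.10, 0.81 and 0.83 in wild-type cells and between 0.44 and 0.81 on the heated arrays of the deletion.

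Of the histidine genes, HIS1 (YER055C), ATP phosphoribosyltransferase of the first step, stood at 0.30, -0.51, -0.83, 0.56 and -0.33 in wild-type cells and 1.97, 0.91, 0.16, 0.18 and 0.81 in the deletion. The unheated deletion array, at 1.97, was the highest of the 10, followed by the deletion at 5 min with 0.91. HIS1 fell in the heat average by 1.01 on the log2 scale (adjusted p = 0.0379), with -0.58 from wild-type and -1.45 from deletion arrays, and the call was lost in 7 of 16 alternatives. HIS3 (YOR202W), HIS4 (YCL030C), HIS5 (YIL116W) and HIS7 (YBR248C), which act later in the route, had heat averages from -0.41 for HIS4 to 0.38 for HIS5, none called. HIS2 (YFR025C), histidinol phosphatase, went from 0.21 at 0 min to 2.08 at 15 min in the wild type and stood between 0.58 and 1.45 on the 4 deletion arrays with a value.

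Threonine, serine and glutamine each had 1 gene that fell. THR1 (YHR025W), homoserine kinase, stood at -0.01, -0.70, -1.53, -0.99 and 0.37 in wild-type cells and 1.37, 0.62, -0.32, -0.67 and 0.67 in the deletion, a heat average of -1.0 ± 0.26, adjusted p = 0.0163. At 60 min THR1 lay above its unheated value in the wild type (change 0.37) and below it in the deletion (change -0.69). The rise from 15 to 60 min was 1.44 ± 0.33, adjusted p = 0.00636. THR4 (YCR053W), threonine synthase, which follows it, was called lower at 15 min alone (-1.09 ± 0.32, adjusted p = 0.0199). HOM3 (YER052C), aspartate kinase at the head of the route, and HOM2 (YDR158W) were at -0.22 and -0.60 in the heat average, not called. At 15 min HOM3 stood at 2.04 on the wild-type array and 0.29 on that of the deletion, a difference of -1.75 between single arrays.

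SER1, phosphoserine aminotransferase, stood at 0.93, 0.07, -0.51, 0.31 and 0.19 in wild-type cells and 0.56, 0.02, -0.61, 0.30 and -0.37 in the deletion, with every heated value below both unheated ones (heat average -0.82 ± 0.22, adjusted p = 0.0196). GLN1 (YPR035W), glutamine synthetase, stood at 1.42, 0.17, 1.26, 1.03 and -0.03 in wild-type cells and 1.87, 1.42, -0.28, 1.06 and -0.58 in the deletion. All heated values lay below both unheated ones except for the deletion at 5 min, which equalled the unheated wild type. Its heat average of -1.14 ± 0.37, adjusted p = 0.0489 was close to the threshold, and 8 of 16 alternatives lost the call.

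In time, the fall was widest at 15 min. At 5, 15, 30 and 60 min 3, 17, 6 and 2 of the 38 genes were called lower than at 0 min, where 4.77%, 14.1%, 8.14% and 0.905% of all features were, and 1, 2, 2 and 1 were called higher, where 3.75%, 9.51%, 4.32% and 0.487% were. These comparisons share the unheated arrays. The medians of the 38 changes were -0.33, -0.84, -0.51 and -0.32. Of the 37 genes with all values, 16 had their lowest wild-type value and 24 their lowest deletion value at 15 min, where 22.5% and 27.2% of all features did. At 5 min these were 11 and 5 genes, where 19.1% and 19% of all features did. For 24 of the 37 genes both 15 min values lay below both unheated values (27.9% of all features), and for 13 both 60 min values did (23.5%). Without the wild-type 5 min array 0 genes were called lower at 5 min, and without that of the deletion 7 were. Of the 16 alternatives, the falls of LYS20 and ILV5 at 5 min were each lost in 5. At 15 min the fall of TRP3 was lost in 9 and those of LYS21 and THR4 in 5 each.

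Against the 15 min arrays, 10 of the 38 genes were higher at 60 min and 0 were lower, where 12.1% and 8.57% of all features were. At an unadjusted p under 0.05 in limma 1 gene was lower, a count without a share of all features beside it. The 10 were LYS4, ARO4, ILV3, LYS21, THR1, LYS20, ARO2, BAT1, LEU1 and ARG8. This count fell to 4 after quantile normalization, after scaling to equal spread or without the deletion 15 min array, and to 3 without the wild-type 60 min array. Calls over all features, higher or lower, went from 1184 to 254 after quantile normalization and to 595 after scaling to equal spread. After quantile normalization the sign of BAT1 turned, from 1.12 to -0.58. BAT1 and ARO3 were the genes called lower at 60 than at 0 min, by 1.66 and 1.22 on the log2 scale. The call of BAT1 at 60 min was lost in 5 of 16 alternatives. GLN1 had the lowest change of the 38 genes at 60 min, -1.95, and was not called. Among the rises from 15 to 60 min, those of LYS4, ARO4 and LYS21 were called in all 16.

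Several of the genes were higher in the KIN82 deletion than in the wild type. Over the 5 times 8 of the 38 tested were called up and 0 down in limma, where 6.6% and 5.38% of all 5744 features were. At an unadjusted p under 0.05 in limma 11 were higher and 0 lower. The share of all features at that threshold is not given here. The median difference was 0.27, beside 0.01 for all features. ARO2 was higher by 1.47 ± 0.20, adjusted p = 0.00122, or 2.77-fold, with differences of 1.40, 2.19, 1.35, 1.07 and 1.34 at 0, 5, 15, 30 and 60 min. The deletion array was thus the higher of each of the 5 pairs, although the deletion at 15 min, at -0.69, lay below the unheated wild type. HIS1 differed by 0.97 ± 0.25, adjusted p = 0.0236, with 1.67, 1.42, 1.0, -0.37 and 1.15 at the 5 times, so that its sign turned at 30 min. THR1 was higher at all 5 times, with differences of 1.37, 1.32, 1.21, 0.32 and 0.31 and a mean of 0.91 ± 0.21, adjusted p = 0.0153.

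LEU9 was higher by 0.88 ± 0.24, adjusted p = 0.0287 and differed most at 5 min, with 0.75, 2.07, 0.25, 0.97 and 0.36 in time order. ARO8 stood between 0.00 and 0.20 on all 5 wild-type arrays and between 0.40 and 1.43 on those of the deletion, with no overlap and a difference of 0.72 ± 0.20, adjusted p = 0.0313. THR4 stood at -0.20, -0.97, -0.96, -0.73 and -0.18 in wild-type cells and 0.60, 0.31, -0.82, 0.12 and 0.15 in the deletion, a difference of 0.68 ± 0.20, adjusted p = 0.0394. ILV2 stood at 0.24, -0.26, -1.07, -0.67 and -0.08 in wild-type cells and 0.68, 0.78, -0.40, 0.39 and 0.05 in the deletion, a difference of 0.67 ± 0.19, adjusted p = 0.0375. TRP5 lay between 0.14 and 0.66 in wild-type cells and between 0.88 and 1.19 in the deletion, again without overlap, a difference of 0.62 ± 0.18, adjusted p = 0.0341. Each of these 5 genes was higher in the deletion at all 5 times. In all, 8 of 37 genes with all values were above the wild type at all 5 times and 1, SER1, was below it, where 13.3% and 11.3% of all features were.

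These calls rested on few arrays. ARO2 alone was called under every alternative that kept a time term, and the count was between 1 and 5 with 1 array left out. It was 1 without the unheated wild-type array or that of the deletion. Within the 0 and 60 min pairs, where the deletion arrays are those titled repeat, 3 of the 38 genes were called higher, with ARO2 at 1.37, HIS1 at 1.41 and HIS7 at 0.93. Within the 5, 15 and 30 min pairs ARO2 alone was called, at 1.54, and HIS1 was at 0.68 (adjusted p = 0.24). The shares of all features called within these pairs are not given here, so these counts have no background beside them.

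By time, the genes lay furthest above the wild type at 5 min. The median difference was 0.25, 0.75, 0.13, 0.20 and 0.18 at 0, 5, 15, 30 and 60 min, beside medians of all features between -0.01 and 0.04. At 5 min 34 of 40 genes lay above the wild type, and at 15 min 23 of 41. Each of these rests on 1 array per strain and was not tested. At 0 min the differences were largest for HIS1 (1.67), HIS7 (1.59), ARO2 (1.40) and THR1 (1.37), and at 5 min for ARO2 (2.19), LEU9 (2.07) and ILV3 (1.71). The arrays at 5 min also differed in spread, with a standard deviation over features of 1.13 for the wild-type array and 0.90 for the deletion array. The chaperones also lay lower in the deletion at 5 min, 23 of 23 with a median difference of -1.58, beside medians between -0.47 and -1.05 at the other times, and 18 of 23 were called lower over the 5 times. The part of either in the result was not tested.

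**Figure D5:**
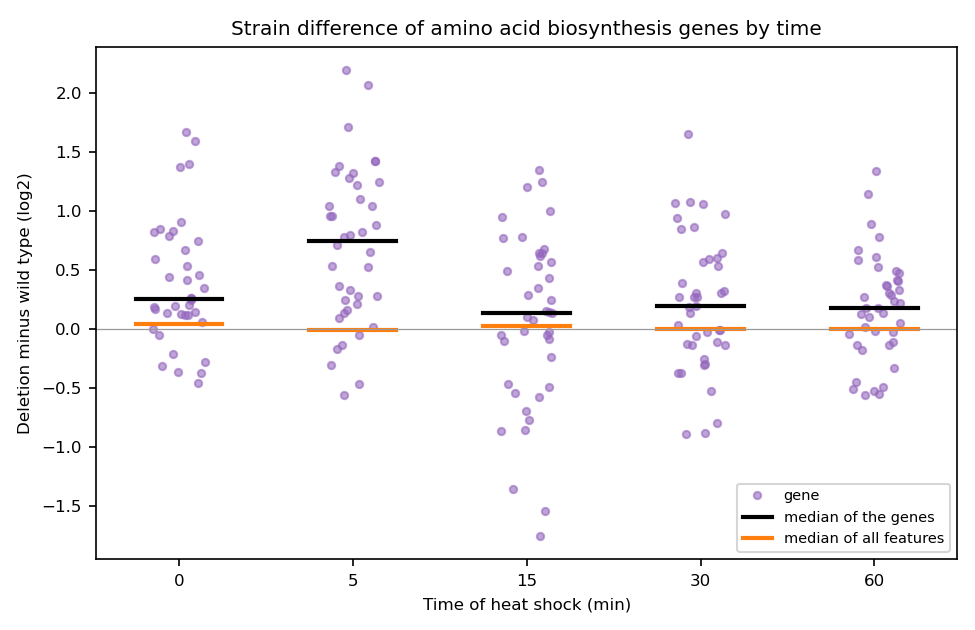
Difference of deletion minus wild type (log2) for each measured gene at each time, 1 point per gene, with the median of these genes (black) and of all features (orange). The black line is highest at 5 min, at 0.75, while the orange line stays near 0.

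Whether the deletion altered the heat change was examined with a strain by heat term. Of the 38 genes 0 were called in limma, 0 passed an unadjusted p under 0.05, and 0% of all 5744 features were called (2.26% passed an unadjusted p under 0.05). The estimates ran from -0.94 (HIS7) to 0.84 (LYS20), with standard errors of 0.67 and 0.51, so that differences of this size were not detectable with 1 pair of unheated arrays. BAT1 changed by a mean of -1.98 over the wild-type arrays and -1.76 over those of the deletion, BAT2 by 1.49 and 0.97, and ARG3 by 1.43 and 2.01.

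Neighbouring genes of amino acid metabolism were taken from lists drawn up by function, with earlier results of these data known. Of 28 other enzymes tested, 5 fell in the heat average and 0 rose (10.3% and 5.76% of all features). They were OAC1, a mitochondrial carrier that exports the leucine precursor isopropylmalate (-1.40 ± 0.22, adjusted p = 0.000495), GDH1, the NADP-dependent glutamate dehydrogenase (-1.31 ± 0.24, adjusted p = 0.00144), GLY1, threonine aldolase (-1.27 ± 0.24, adjusted p = 0.00179), ASN2, an asparagine synthetase (-1.15 ± 0.22, adjusted p = 0.00195), and PRO1, glutamate kinase of proline synthesis (-0.90 ± 0.24, adjusted p = 0.0193). GDH1 was lowest at 60 min, unlike most of the genes above, at 1.41, 1.51, -0.12, -0.88 and -1.44 in wild-type cells and 1.28, 1.77, 0.58, -0.10 and -1.04 in the deletion. In the strain comparison PRO1, PRO2 and SHM2, the cytosolic serine hydroxymethyltransferase, exceeded the wild type by 0.96 ± 0.21, adjusted p = 0.0133, 0.91 ± 0.18, adjusted p = 0.00885 and 1.10 ± 0.31, adjusted p = 0.032, and 0 of the 28 were lower (6.6% of all features were higher and 5.38% lower). SHM2 differed by 2.21, 2.20, -0.36, 0.87 and 0.57 at 0, 5, 15, 30 and 60 min, so that its sign turned at 15 min.

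Of 15 amino acid permeases tested, 7 fell in the heat average and 1 rose (10.3% and 5.76% of all features). The falls were TAT1 (-1.15 ± 0.22, adjusted p = 0.00212) and BAP3 (-1.30 ± 0.27, adjusted p = 0.00315), which carry branched-chain and aromatic amino acids, BAP2 (-0.73 ± 0.23, adjusted p = 0.0398), the histidine permease HIP1 (-1.21 ± 0.27, adjusted p = 0.00607), AGP1 (-1.16 ± 0.24, adjusted p = 0.00337), and the methionine permeases MUP1 (-0.89 ± 0.24, adjusted p = 0.0165) and MUP3 (-1.31 ± 0.41, adjusted p = 0.0443). MUP3 had no value on the wild-type 15 min array, and its wild-type changes from 0 min were 0.30, -0.43 and -1.21 at 5, 30 and 60 min. In the deletion, whose unheated array stood at 2.67, they were -2.84, -1.77, -1.87 and -2.35 at 5, 15, 30 and 60 min. The rise was that of GNP1, a glutamine permease (0.83 ± 0.24, adjusted p = 0.0265). How calls of the permeases, regulators and other enzymes hold under the alternatives is not given here. Between the strains 1 of the 15 permeases was called higher in the deletion and 1 lower, near the shares of all features (6.6% and 5.38%). MUP1 was the higher (0.85 ± 0.19, limma adjusted p = 0.013). DIP5, the dicarboxylic amino acid permease, was the lower (-1.06 ± 0.26, adjusted p = 0.018).

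Of 17 regulators tested, 1 fell and 0 rose in the heat average (10.3% and 5.76% of all features), which was GCN20, a cofactor in the activation of Gcn2 (-0.84 ± 0.24, adjusted p = 0.0265). At 15 min 4 of the 17 were called lower and 0 higher (14.1% and 9.51% of all features). They were GCN20 (-0.97 ± 0.31, adjusted p = 0.0323), GCN1, its partner (-0.94 ± 0.32, adjusted p = 0.0473), GCN3, a subunit of the initiation factor eIF2B (-0.92 ± 0.30, adjusted p = 0.0341), and GCN4. GCN4 stood at 0.46, -0.56, -0.05, -0.18 and 0.01 in wild-type cells and 1.05, 0.51, -0.32, 0.37 and 0.54 in the deletion and was called lower at 15 min alone (-0.94 ± 0.32, adjusted p = 0.0464). Gcn4 is controlled chiefly in translation, which arrays do not measure. LEU3 was at 0.03 in the heat average and LYS14 at 0.04, not called. In the strain comparison 1 of the 17 was called higher in the deletion and 1 lower, near the shares of all features (6.6% and 5.38%). GCN20 was the higher (0.69 ± 0.19, limma adjusted p = 0.0336) and GCN2 the lower (-0.63 ± 0.18, adjusted p = 0.0347).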

How the data were processed

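The deposited table holds log ratios of the 2 channels of each array, which were read as log2 ratios. Were they natural logarithms, every value would scale by one factor. The sources used here do not state how the authors corrected background, normalized or filtered. RefSeq (assembly R64) gave symbols for 5484 of 5983 features through their locus tags. No sequences are shown, and no coordinates, since no build is named. Genes and lists were chosen with earlier results of these data known. 1 gene of the other enzymes is not reported here and is left out of that list's counts. Arrays were centred on their medians, and limma 3.58.1 under R 4.3.3 (lmFit, eBayes) was run on features measured on both unheated arrays and on 8 or more of the 10 in all. The model held time as a factor and strain (4 residual degrees of freedom, prior 11.0), plus a strain by heat term for that comparison (3 residual, prior 13.1). Features lacking both arrays of a time were left out of comparisons that use it. P-values were adjusted by Benjamini-Hochberg over all features tested, with calls under 0.05. Folds are 2 to the power of the log2 difference, and errors are standard errors of the fit. Nothing states that the times of a strain came from separate cultures, so p-values may measure technical spread. Sample over reference was adopted as the direction because more than 80% of the chaperones were higher at 15 min in both strains. The fit was tested on simulated data. All genes were described by route. Values on every array are given for genes called in the heat average, the strain difference or the strain by heat term. The same holds for 4 pairs of paralogues, while ARO8 and TRP5 are given as ranges. Genes of the other lists are named where called in the heat average or the strain difference. A few others were named after their values were seen (HIS2, ARG1, ARG56, HOM3, HIS7, GCN1, GCN3, GCN4, LEU3, LYS14 and genes called at single times). Alternatives were no centring, quantile normalization, equal median absolute deviation, complete features, trended robust eBayes, no time term, each array left out, and both arrays titled repeat left out. Strain differences within the 0 and 60 min and the 5, 15 and 30 min pairs were added after seeing the data.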

Additional observations from a re-analysis of the deposited data

How the results depend on the processing

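Median-centred counts of the 38 genes were compared with each alternative. With 1 array left out in turn, the heat average gave 2 to 15 falls and 1 to 2 rises, 5 min 0 to 7 and 1, 15 min 10 to 20 and 1 to 2, 30 min 2 to 8 and 2, and 60 min 0 to 5 and 0 to 2. From 15 to 60 min 3 to 13 genes were higher and 0 to 2 lower, and 1 to 5 were higher in the deletion with 0 lower. A time with 1 array left is assumed to vary like the others. Quantile normalization gave 1 fall at 5 min, 7 falls and 2 rises at 60 min, 4 rises from 15 to 60 min with BAT1 reversed at -0.58, and 5 genes higher in the deletion. Among all features, the share of calls that were higher went from 35% to 47.3% at 60 min under quantile normalization, and from 55.1% to 65.5% in the strain difference without centring. Equal median absolute deviation gave 7 falls and 2 rises at 60 min and 4 rises from 15 to 60 min, and no centring 1 fall at 60 min. Calls over all features, higher or lower, moved as well. At 60 min they went from 80 to 566 under quantile normalization, 514 under equal median absolute deviation and 64 without centring. From 15 to 60 min they went from 1184 to 254 under quantile normalization and 595 under equal median absolute deviation. Quantile normalization took them from 489 to 136 at 5 min and from 688 to 395 in the strain difference. Without both arrays titled repeat there were 2 falls in the heat average, 1 fall and 0 rises at 5 min, 3 rises at 15 min, 3 falls at 30 min, 0 and 0 at 60 min, 5 rises from 15 to 60 min and 1 gene higher in the deletion. Without a time term 0 were higher, within the 0 and 60 min pairs 3, and within the 5, 15 and 30 min pairs 1. Shares of all features called are not given for these fits. The strain by heat term could not be fitted without either unheated array. The causes were not tested. Replicates could not be paired because each strain and time has 1 array and the labels give no replicate numbers. The strain difference compared the strains within each time, with time as a block.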

Other observations

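HIS7, imidazole glycerol phosphate synthase, had the largest strain difference among the genes not called, 0.84 ± 0.28 (limma adjusted p = 0.0629), with deletion minus wild type at 1.59, -0.56, 1.24, 1.65 and 0.27 at 0, 5, 15, 30 and 60 min. The sign turned at 5 min. LYS1 had wild-type values of 0.91, 0.33, 1.93, 2.23 and 1.37 and deletion values of 1.04, 0.98, 1.35, 1.35 and 1.42, and its change from 0 min was 1.31 at 30 min in the wild type beside 0.31 in the deletion. These are single arrays and were not tested. CPA1, a subunit of the arginine-specific carbamoyl phosphate synthetase, was called higher at 5 min alone (1.33 ± 0.36, adjusted p = 0.0313), with 1.58 on the wild-type array and 0.36 on that of the deletion. AAT2 and ALT1, aminotransferases of aspartate and alanine, were called higher at 30 min alone among the times (1.14 ± 0.29, adjusted p = 0.0165 and 1.07 ± 0.28, adjusted p = 0.0184). Falls outnumbered rises among the 28 other enzymes tested. At 5 min 1 was called higher and 2 lower (3.75% and 4.77% of all features). At 15 min these were 0 and 7 (9.51% and 14.1%), and at 30 min 2 and 4 (4.32% and 8.14%).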
